A study of Mus musculus with 24 samples.

Results

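The tuft cell genes described here are 9 genes used to recognise tuft cells of the intestinal epithelium: Pou2f3, Gfi1b, Trpm5, Dclk1, Avil, Il25, Ptgs1, Alox5ap and Sh2d6. They were chosen by name, and each symbol matched 1 of the 54146 gene identifiers in the deposited count tables. RNA was sequenced from mouse small intestinal organoids, which are self-renewing epithelial cultures grown from crypts, in 2 experiments of 4 groups with 3 libraries each. The genotype experiment held WT, Cdk8-/-, Cdk19-/- and double knockout organoids, all after 7 days in 600 nM 4-hydroxytamoxifen. The floxed exon 2 of Cdk8 was removed by a tamoxifen-activated Cre driven by the Villin promoter, which is active in epithelial cells. Cdk19 was targeted by a lentiviral CRISPR guide against its first exon, and single organoids were then expanded. A culture with targeted Cdk19 may thus trace back to few founder cells. The paper describes no such step for organoids in which Cdk8 alone was removed. The inhibitor experiment held WT organoids kept for 16 h or 24 h in DMSO or in Senexin B, a small-molecule inhibitor of CDK8 and CDK19, at 10 µM. The labels of the inhibitor samples carry the same 7 days of 4-hydroxytamoxifen in a protocol text shared with the genotype samples, and whether these cultures received it is not clear from the labels. Nothing in the labels says that libraries of a group came from separate animals, so p-values measure the spread between these libraries.

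Tuft cells are rare chemosensory cells scattered along the epithelium. The transcription factor Pou2f3 is needed to form them, a taste-like signalling cascade that ends in the cation channel Trpm5 lets them sense luminal metabolites and parasites, and they answer with the cytokine Il25, which activates innate lymphoid cells, and with lipid mediators made by Ptgs1 and Alox5ap. CDK8 and CDK19 are the paralogous kinases of the Mediator complex, through which transcription factors act on RNA polymerase.

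Sequencing depth was even within each experiment. Between 14636861 and 15473180 reads per genotype library and between 27075937 and 28405118 per inhibitor library were counted on genes in the column used. Of 33 markers of goblet, Paneth, enteroendocrine, absorptive and stem cells, all 33 passed the filter on low counts in both experiments, although the genotype samples also carry the name of the mammary tumour line 4T1 as cell type. Cdk8 stood at 42.4 to 57.3 CPM in the libraries labelled Cdk8-/- or double knockout and at 35.8 to 43.2 CPM in WT, and a gene total cannot show the loss of 1 exon. Cdk19 was at 28.1 and 28.3 CPM in Cdk19-/- replicates 2 and 3 and at 27.0 and 23.8 CPM in double knockout replicates 1 and 2, against 47.6 to 50.1 CPM in WT. The library labelled Cdk19-/- replicate 1 (48.8 CPM) and the library labelled double knockout replicate 3 (51.7 CPM) were at the WT level. The paper describes a short deletion in the first exon of Cdk19 and reports loss of its mRNA. A gene total cannot show whether that deletion is present in a library. Over all genes, Cdk19-/- replicate 1 was closer to WT replicate 1 (chi-square per gene 14.7) than to its own group (23.5 and 24.7), and double knockout replicate 3 was closer to Cdk8-/- replicate 3 (14.4) than to its own group (22.4 and 35.9). Double knockout replicate 2, with Cdk19 below the WT level, was also closer to Cdk8-/- replicates 3 (10.7) and 1 (20.3) than to its own group (22.4 and 24.2). Calls that change without this pair are given beside the results for the members and for the other tuft cell genes.

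All members are protein-coding genes, and their positions are those of GENCODE vM21 on GRCm38. The regulators are Pou2f3 (chr9:43123939-43210369, minus strand) and Gfi1b (chr2:28609450-28621982, minus strand). Genes of sensing and cell shape are Trpm5 (chr7:143069153-143094642, minus strand), the microtubule-associated kinase Dclk1 (chr3:55242364-55539068, plus strand) and the actin-binding protein Avil (chr10:127000709-127020994, plus strand). Genes of signals sent out are Il25 (chr14:54932695-54935837, plus strand), the cyclooxygenase Ptgs1 (chr2:36230426-36252272, plus strand) and the 5-lipoxygenase-activating protein Alox5ap (chr5:149264767-149288153, plus strand). Sh2d6 (chr6:72513641-72521707, minus strand) encodes an adaptor protein with an SH2 domain. Antisense genes share exon bases with some of them. The overlap with Gm19719 took 189 bases, or 13.3%, of the exons of Alox5ap, that with Tsfm 4.86% of those of Avil, that with Gm43621 3.81% of those of Ptgs1, and that with Tssc4 3.44% of those of Trpm5. Because the genotype libraries held no strand information, reads from these partners cannot be told apart there. Summed over them, the unstranded column held 116% as many Alox5ap reads as the column used, against 184% to 200% for the other members. The share of exon bases is thus not the share of reads affected. In the stranded inhibitor libraries 21.4% of the stranded reads on Trpm5 were on the opposite strand, against 1.7% to 11.04% for the other members.

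Promoters are shown for Ptgs1, Avil and Dclk1, which are those of the 5 members called at 24 h of Senexin B (below) that have an entry among the RefSeq promoters of GRCm38.p6. Of the 9 members, 6 matched, with 7 promoters in all, and Pou2f3, Alox5ap and Il25 did not. Each run has 300 bases, from 250 before to 50 after a transcription start, read 5′ to 3′ on the plus strand. They lie at chr2:36230176-36230475 for Ptgs1, at chr10:127000459-127000758 for Avil, and at chr3:55242114-55242413 and chr3:55461478-55461777 for an upstream and an internal start of Dclk1. Capitals mark ATGCAAA, the core of the octamer ATGCAAAT to which POU-domain factors such as Pou2f3 bind, on either strand, a motif chosen after the sequences had been seen.
Ptgs1: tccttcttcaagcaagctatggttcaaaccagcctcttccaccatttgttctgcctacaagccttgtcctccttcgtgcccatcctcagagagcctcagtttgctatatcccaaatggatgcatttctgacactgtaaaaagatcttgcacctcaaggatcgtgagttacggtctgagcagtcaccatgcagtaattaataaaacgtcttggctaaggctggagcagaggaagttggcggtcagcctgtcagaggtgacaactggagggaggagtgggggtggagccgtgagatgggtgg
Avil: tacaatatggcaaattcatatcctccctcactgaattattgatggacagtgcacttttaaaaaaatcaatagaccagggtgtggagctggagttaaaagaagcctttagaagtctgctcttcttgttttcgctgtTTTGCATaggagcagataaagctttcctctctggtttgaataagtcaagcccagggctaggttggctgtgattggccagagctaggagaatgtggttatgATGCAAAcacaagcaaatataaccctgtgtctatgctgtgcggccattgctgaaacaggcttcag
Dclk1, upstream start: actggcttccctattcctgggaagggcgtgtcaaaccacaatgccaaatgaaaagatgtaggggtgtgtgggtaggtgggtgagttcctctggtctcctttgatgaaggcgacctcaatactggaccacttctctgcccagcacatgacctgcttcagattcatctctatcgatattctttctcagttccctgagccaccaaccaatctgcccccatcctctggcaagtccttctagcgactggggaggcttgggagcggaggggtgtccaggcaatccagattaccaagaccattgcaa
Dclk1, internal start: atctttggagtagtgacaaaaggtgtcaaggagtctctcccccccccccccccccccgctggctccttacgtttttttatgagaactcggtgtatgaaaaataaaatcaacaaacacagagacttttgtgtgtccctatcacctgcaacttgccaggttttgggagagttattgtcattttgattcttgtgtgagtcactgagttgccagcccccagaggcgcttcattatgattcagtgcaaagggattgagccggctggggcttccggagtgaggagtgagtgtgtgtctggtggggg
The full octamer ATGCAAAT was found on either strand in 570 of 32851 promoters (1.74%) and in 0 of the 7 promoters of members. Its core ATGCAAA, which also counts every full octamer, was found in 1520 promoters (4.63%), and among the members in Avil alone, at 2 places. A match is a description of the letters in this window only.

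Per kilobase of exon, the members fell into 2 tiers in WT organoids. Mean levels were 4.36 ± 1.48 CPM per kb for Alox5ap, 4.02 ± 0.757 for Sh2d6, 3.75 ± 0.949 for Trpm5, 3.52 ± 0.543 for Pou2f3 and 3.34 ± 0.913 for Avil (SD, n = 3), and these neighbours did not differ beyond their spread. Below them stood Dclk1 at 1.25 ± 0.279, Ptgs1 at 0.984 ± 0.221 and Gfi1b at 0.711 ± 0.222 CPM per kb. In the DMSO 16 h organoids of the inhibitor experiment the order differed: Sh2d6 led at 1.85 ± 0.364 CPM per kb and Alox5ap, at 1.01 ± 0.142, stood close to Ptgs1, at 1.09 ± 0.161. The experiments were normalised separately and differ in strand information and labelled RNA preparation, so levels are not compared between them. Il25 was close to the detection limit, and its counts summed over 3 libraries were 5 in WT (exact 95% Poisson interval 1.62 to 11.7), 10 in Cdk8-/- (4.795 to 18.4), 1 in Cdk19-/- (0.0253 to 5.57) and 6 in double knockout organoids (2.20 to 13.1). In the inhibitor experiment they were 10 in DMSO at each time, 21 in Senexin B at 16 h (12.999 to 32.1), of which 17 came from replicate 1, and 16 in Senexin B at 24 h (9.15 to 25.98). These intervals cover counting error only. Il25 did not pass the filter in either experiment, which leaves 8 of the 9 members in the counts given here. With no filter Il25 was called in 0 of 10 contrasts (edgeR, adjusted p from 0.384 to 1).

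Likeness between the members across libraries was uneven. Over the 12 genotype libraries, Pearson's r of each member with the mean of the others ranged from 0.656 for Pou2f3 and 0.661 for Ptgs1 to 0.971 for Alox5ap, and over the 12 inhibitor libraries from 0.501 for Trpm5 to 0.920 for Avil. For scale, Cd24a, whose r with the members' mean was 0.499 in the inhibitor experiment, ranked 2389 of 11998 candidate genes there. These are descriptions over libraries that share group and batch. Double knockout replicate 1 held the lowest level of all 8 tested members and Cdk8-/- replicate 1 the highest level of 7. Double knockout replicate 1 also had the highest summed level of absorptive enterocyte markers of the 12 libraries, 14274 CPM against 3725 to 10162 CPM, and the lowest of enteroendocrine markers, 863 CPM against 1019 to 2309 CPM. Among the non-member genes whose profile was most like the members' mean, of 12126 candidates, were Sh2d7, Pim3, Alox5 and Gprc5c (r of 0.955, 0.937, 0.930 and 0.926 over the 12 genotype libraries). In the inhibitor experiment, among 11998 candidates, they were Lct, Ccn1, Rpl4, Plekhh1 and Paf1 (0.962, 0.956, 0.949, 0.945 and 0.945), of which 0 are on the list of other tuft cell genes used below.

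**Figure D1:**
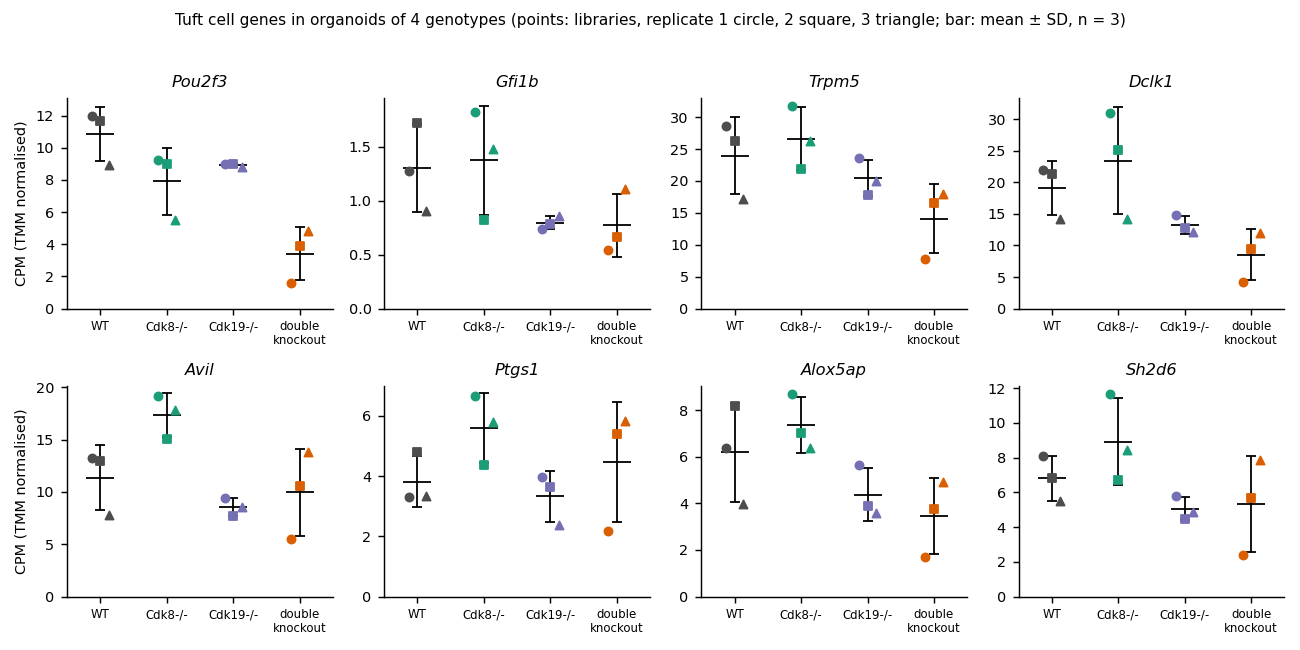
Levels of the 8 tested tuft cell genes in each genotype library, in CPM after TMM normalisation on a linear axis from 0, with points for libraries and bars for the mean ± SD of 3. Double knockout replicate 1 is the lowest point for every gene, and all 3 double knockout points of Pou2f3 and Dclk1 lie below all 3 WT points.

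Pou2f3 and Dclk1 fell in organoids that lacked both kinases by label. In double knockout against WT organoids, 2 of the 8 tested members fell and 0 rose at an adjusted p under 0.05 (edgeR's quasi-likelihood test over 15602 genes), where 7.9% of all genes were called lower and 17.3% were called in either direction. The median log2 fold change of the 8 was -0.76, beside -0.01 over all genes, and 1 of 8 was positive, against 48.9% of all genes. The groups did not overlap and were lower in the double knockout for 2 of 8, against 20.1% of all genes. The summed level of the 9 genes overlapped between the groups, at 26.1 to 68.7 CPM in the double knockout and 62.0 to 95.03 CPM in WT. Where a tuft cell gene is lower in a bulk library, fewer tuft cells and less of its RNA per cell cannot be told apart.

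Pou2f3, the regulator of tuft cell identity, was at 11.98, 11.7 and 8.94 CPM in WT and at 1.57, 3.89 and 4.81 CPM in double knockout organoids. Every double knockout library was below every WT library. The log2 fold change was -1.66 (SE 0.32, adjusted p = 0.0050), a level 0.316 times that of WT (95% interval 0.196 to 0.510). Pou2f3 remained called under all 14 alternatives, with log2 fold changes of -1.99 to -1.31. Without double knockout replicate 1 its log2 fold change was -1.31 (adjusted p = 0.0066), and without the pair of libraries with Cdk19 at the WT level it was -1.99 (adjusted p = 0.00446).

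Dclk1, the kinase most used to stain tuft cells, was at 22.01, 21.2 and 14.3 CPM in WT and at 4.23, 9.42 and 12.02 CPM in double knockout organoids. The groups did not overlap. The log2 fold change was -1.16 (SE 0.34, adjusted p = 0.0371). This call held under 8 of 14 alternatives and was lost without double knockout replicate 1 (log2 fold change -0.83, adjusted p = 0.0848). It was also lost without double knockout replicate 2 (-1.23, adjusted p = 0.0725), without WT replicate 1 (-1.05, adjusted p = 0.12) and without WT replicate 2 (-1.07, adjusted p = 0.106). The remaining losses were with the replicate number as a block (-1.12, adjusted p = 0.0638) and with only the groups compared (-1.15, adjusted p = 0.0566).

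The other members did not pass the test in this comparison. Trpm5, the channel of the taste-like cascade, was at 28.6, 26.3 and 17.1 CPM in WT and at 7.85, 16.5 and 18.0 CPM in double knockout organoids, and only double knockout replicate 3 reached the lowest WT library. Its log2 fold change was -0.76 (SE 0.28, adjusted p = 0.0771), and it was called by the Wald test of DESeq2 (adjusted p = 0.0387), with no filter on low counts (adjusted p = 0.00613) and without the pair of libraries with Cdk19 at the WT level (-0.98, adjusted p = 0.0469). Alox5ap had a log2 fold change of -0.83 (SE 0.35, adjusted p = 0.128), and was called without that pair (-1.18, adjusted p = 0.0464). Gfi1b had one of -0.75 (SE 0.39, adjusted p = 0.206). Values closer to 0 were found for Sh2d6 (-0.36, SE 0.34), Avil (-0.18, SE 0.28) and Ptgs1 (0.23, SE 0.34), and for these the double knockout libraries lay on both sides of the WT mean.

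**Figure D2:**
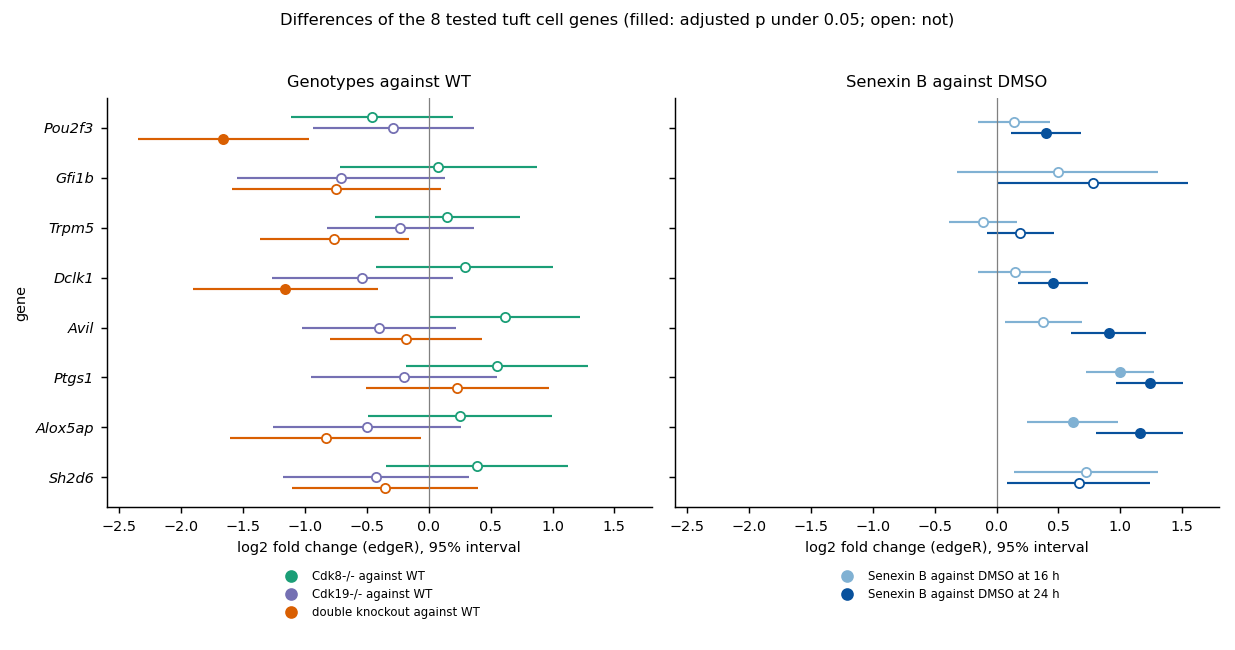
Log2 fold changes of the 8 tested tuft cell genes with 95% intervals, for the 3 genotypes against WT (left) and for Senexin B against DMSO at 16 h and 24 h (right), filled where the adjusted p was under 0.05. Pou2f3 and Dclk1 are the filled points of the genotypes, at -1.66 and -1.16 in the double knockout, and every filled point of Senexin B lies above 0.

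No member was called in either single knockout. Against WT, 0 of 8 were called in Cdk8-/- organoids, where 5.15% of all genes were (2.79% higher and 2.36% lower), and 1 of 8 had an unadjusted p under 0.05, against 21.4% of all genes. Of the 8 log2 fold changes 7 were positive, as for 51.6% of all genes. The member with the unadjusted p under 0.05 was Avil, which bundles and severs actin, at 19.1, 15.1 and 17.9 CPM against 13.3, 12.99 and 7.75 CPM in WT (log2 fold change 0.61, SE 0.28, adjusted p = 0.228). Its groups did not overlap, as for 14.9% of all genes in that direction. In Cdk19-/- organoids 0 of 8 members were called, where 0 of 15602 genes were (0% called by edgeR, and 10.8% at an unadjusted p under 0.05), and 0 of 8 had an unadjusted p under 0.05. All 8 log2 fold changes were negative there, from -0.71 for Gfi1b to -0.20 for Ptgs1, beside 45.9% of all genes with a positive one. Groups did not overlap for 1 member, Gfi1b, which was lower (10.8% of all genes), and for 0 that were higher (9.13% of all genes). The 95% interval for Pou2f3 ran from -1.11 to 0.20 in Cdk8-/- and from -0.94 to 0.36 in Cdk19-/- organoids.

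Against the single knockouts, the double knockout again had low Pou2f3. Pou2f3 stood at 8.97, 8.98 and 8.79 CPM in Cdk19-/- organoids, and all 3 libraries of the double knockout lay below these. Its log2 fold change was -1.37 (SE 0.32, adjusted p = 0.00854). It was the single member called of 8 there, where 25.3% of all genes were called and 11% were called lower, and it was called under all 14 alternatives. It was also the single member with an unadjusted p under 0.05, as 38.6% of all genes had. Log2 fold changes were positive for Ptgs1 (0.43), Avil (0.22) and Sh2d6 (0.07) and negative for the other tested members, beside 48.8% of all genes with a positive one. Groups did not overlap and were lower for 2 of 8 members, Pou2f3 and Dclk1, against 19.4% of all genes. In Cdk8-/- organoids Pou2f3 stood at 9.23, 9.01 and 5.53 CPM, also above all 3 double knockout libraries. Against Cdk8-/- organoids 0 of 8 members were called, where 0.0256% of all genes were (4 genes). There 6 of 8 had an unadjusted p under 0.05, against 15.5% of all genes, and 5 of 8 had groups that did not overlap and were lower in the double knockout, against 8.04% of all genes (0 of 8 and 7.76% were higher). All 8 log2 fold changes were negative, while 48.9% of all genes had a positive one. The log2 fold changes were -1.45 for Dclk1 (SE 0.34, adjusted p = 0.141), -1.20 for Pou2f3 (SE 0.32, adjusted p = 0.144), -1.08 for Alox5ap, -0.92 for Trpm5 and -0.80 for Avil. The Wald test of DESeq2 called 3 of the members against Cdk8-/- organoids, namely Dclk1, Pou2f3 and Trpm5, where it called 3.13% of all genes with an adjusted p. Without Cdk8-/- replicate 3, edgeR called Dclk1 (-1.70, adjusted p = 0.0205) and Pou2f3 (-1.40, adjusted p = 0.0343). These comparisons share the double knockout libraries. The departure of the double knockout from the sum of both single knockouts, a contrast added after the data were seen, was called for 0 of 8 members, where 0.0256% of all genes were called, and was -0.92 for Pou2f3 (SE 0.44, adjusted p = 0.36) and -0.91 for Dclk1 (SE 0.48, adjusted p = 0.408).

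A change that scales all 9 genes alike leaves the share of each in their summed counts as it was. Pou2f3 made up 12.5% to 14.4% of these counts in WT and 12.3% to 14.9% in Cdk19-/- organoids, against 6.42% to 10.0% in Cdk8-/- and 6.02% to 7.0% in double knockout organoids. Libraries labelled Cdk8-/- or double knockout all lay below libraries labelled WT or Cdk19-/-, double knockout replicate 1 (6.02%) and replicate 3 (7.0%) included. Dclk1 made up 22.7% to 23.2% in WT and 16.2% to 17.5% in double knockout organoids, with Cdk8-/- libraries spread from 16.5% to 27.9% and Cdk19-/- libraries from 19.8% to 21.2%. Avil made up 12.5% to 14.0% in WT and 19.0% to 21.2% in double knockout organoids, and Ptgs1 3.47% to 5.41% and 8.38% to 9.67%. In Cdk8-/- organoids Avil made up 15.9% to 20.8%, overlapping the double knockout, and Ptgs1 4.85% to 6.72%, and in Cdk19-/- organoids they made up 12.8% to 14.02% and 3.88% to 6.06%. The shares of Trpm5 overlapped, 27.6% to 30.1% in WT and 26.2% to 30.1% in the double knockout. Shares sum to the whole, so a lower share of 1 member raises those of the others, and they were calculated after the values had been seen and carry no test. With 3 libraries against 3, an exact permutation test could not go below p = 0.1 in any case.

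**Figure D3:**
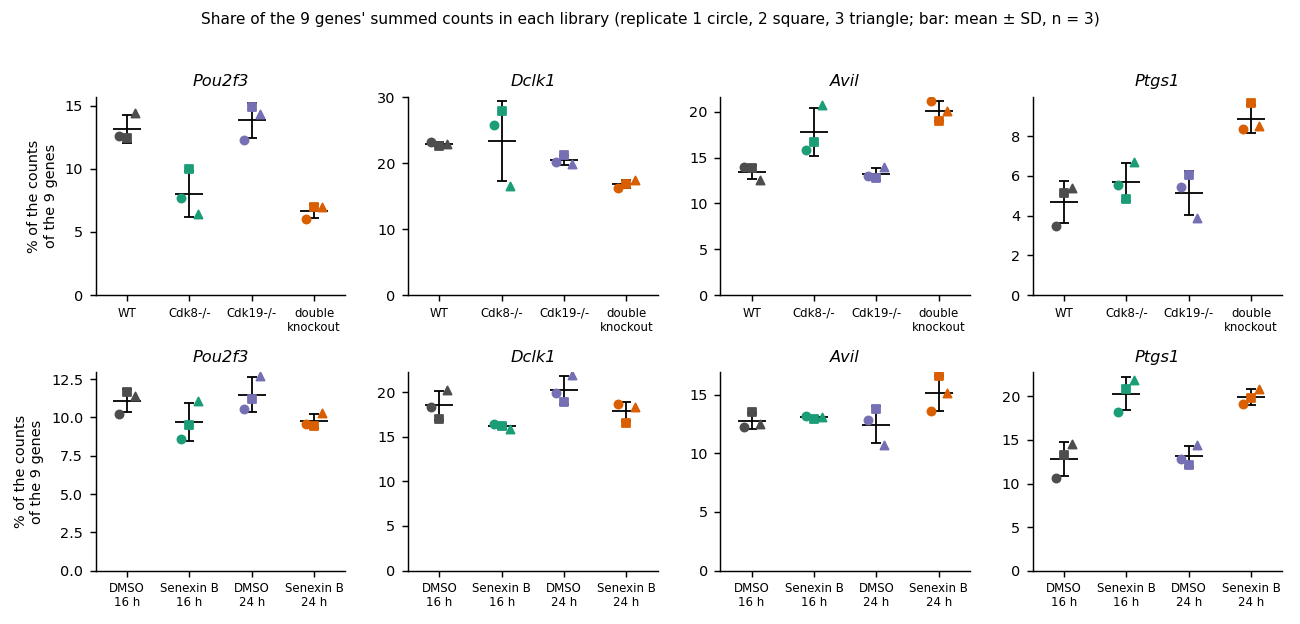
Percent of the summed counts of the 9 tuft cell genes that came from Pou2f3, Dclk1, Avil and Ptgs1 in each library, for the genotypes (top) and the inhibitor experiment (bottom), with the mean ± SD of 3. Pou2f3 is at 6.02% to 10.0% in Cdk8-/- and double knockout organoids and at 12.3% to 14.9% in the others, and Ptgs1 is at 18.2% to 21.8% under Senexin B and at 10.7% to 14.5% in DMSO.

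Ptgs1 and Alox5ap, the lipid-mediator genes among the members, rose under Senexin B at both times. At 16 h, 2 of 8 tested members rose against DMSO and 0 fell (edgeR's quasi-likelihood test over 15467 genes), where 4.36% of all genes were called higher, 3.39% lower and 7.75% in either direction. At 24 h, 5 of 8 rose and 0 fell, where 14.8% were called higher and 27.5% in either direction. The medians of the 8 log2 fold changes were 0.44 and 0.72, beside -0.01 and 0.0011 over all genes. Groups did not overlap and were higher in Senexin B for 4 of 8 at 16 h and 6 of 8 at 24 h, against 12.2% and 23.5% of all genes, and were lower for 0 of 8, against 12.6% and 22.1%. An unadjusted p under 0.05 was found for 4 of 8 at 16 h and 7 of 8 at 24 h, against 22.5% and 39.2% of all genes. At 16 h 7 of 8 log2 fold changes were positive and at 24 h all 8, against 48.7% and 50.1% of all genes. Libraries with the same replicate number deviated together in these comparisons, and with that number as a block 3 members were called at 16 h and 6 at 24 h, Sh2d6 being the addition at both times.

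Ptgs1, the constitutive cyclooxygenase that starts prostaglandin synthesis, was at 3.53, 4.45 and 4.72 CPM in DMSO and at 8.85, 7.60 and 8.91 CPM in Senexin B at 16 h. At 24 h it was at 4.91, 3.98 and 4.75 CPM in DMSO and at 11.2, 10.2 and 10.8 CPM in Senexin B. The groups were far apart at both times, with every treated library above every DMSO library. The log2 fold changes were 1.00 (SE 0.13, adjusted p = 0.000336) at 16 h and 1.24 (SE 0.13, adjusted p = 2.48e-05) at 24 h. Both calls held under all 13 alternatives. Its share of the counts of the 9 genes was 10.7% to 14.5% in DMSO at 16 h and 18.2% to 21.8% in Senexin B, and 12.1% to 14.4% against 19.1% to 20.9% at 24 h.

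Alox5ap, which hands arachidonic acid to 5-lipoxygenase for leukotriene synthesis, was at 1.36, 1.27 and 1.66 CPM in DMSO and at 2.38, 2.09 and 2.11 CPM in Senexin B at 16 h. At 24 h it was at 1.23, 1.52 and 1.58 CPM against 3.53, 3.01 and 3.12 CPM. No treated library overlapped with a control library of the same time. The log2 fold change at 16 h was 0.62 (SE 0.17, adjusted p = 0.0419), a call that held under 4 of 13 alternatives. Leaving out any of 5 of the 6 libraries compared lost it, DMSO 16 h replicate 3 being the exception, with adjusted p-values up to 0.136. At 24 h the log2 fold change was 1.15 (SE 0.16, adjusted p = 0.00027), a call that held under all 13 alternatives. Summed over the inhibitor libraries, the unstranded column held 28.1% as many Alox5ap reads as the stranded column used, and gave log2 fold changes of 0.56 at 16 h (adjusted p = 0.29) and 1.21 at 24 h (adjusted p = 0.0026).

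**Figure D4:**
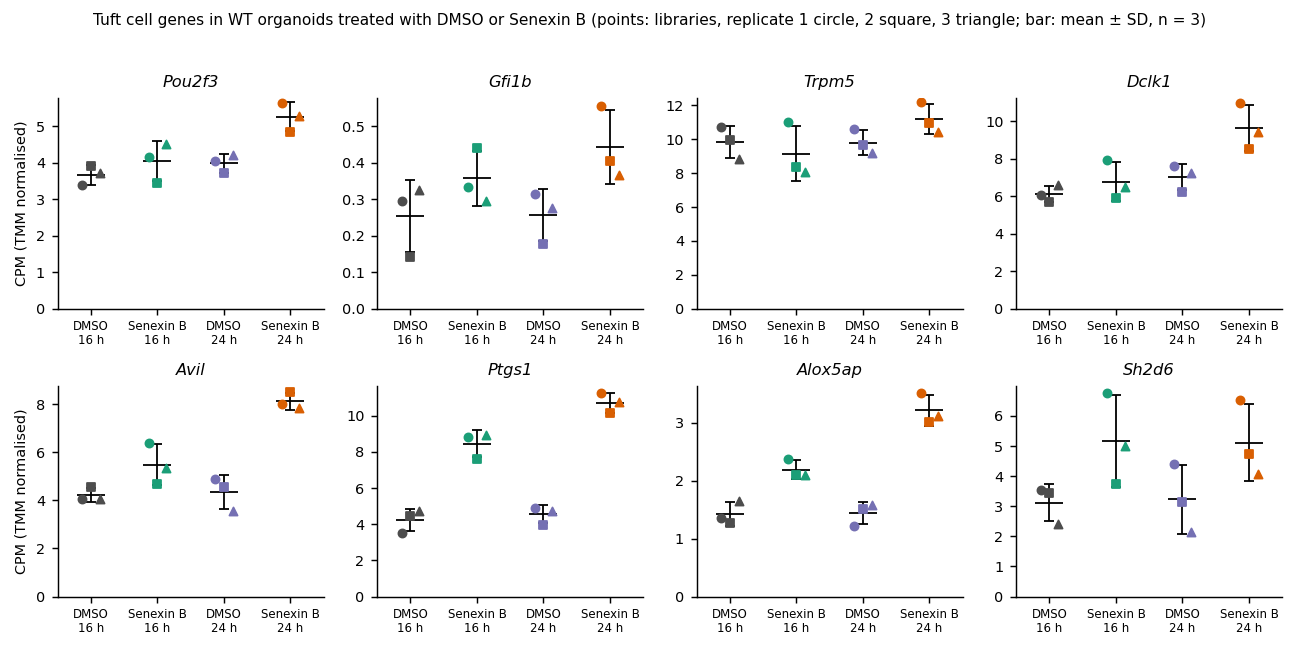
Levels of the 8 tested tuft cell genes in each inhibitor library, in CPM after TMM normalisation on a linear axis from 0, with points for libraries and bars for the mean ± SD of 3. Ptgs1 and Alox5ap are above DMSO at both times, Avil reaches 7.82 to 8.51 CPM at 24 h of Senexin B against 3.55 to 4.91 CPM in DMSO, and Trpm5 lies between 8.06 and 12.2 CPM in all 12 libraries.

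Avil, Dclk1 and Pou2f3 rose at 24 h. Avil was at 4.91, 4.55 and 3.55 CPM in DMSO and at 8.02, 8.51 and 7.82 CPM in Senexin B at 24 h, without overlap (log2 fold change 0.90, SE 0.14, adjusted p = 0.000468), and was called under all 13 alternatives. At 16 h its log2 fold change was 0.38 (SE 0.14, adjusted p = 0.135, and 0.0434 in the unstranded column). Dclk1 was at 7.61, 6.24 and 7.24 CPM in DMSO and at 10.98, 8.51 and 9.44 CPM in Senexin B at 24 h. The groups did not overlap, and the log2 fold change was 0.46 (SE 0.13, adjusted p = 0.0214), lost without Senexin B 24 h replicate 1 (adjusted p = 0.0846) and without DMSO 24 h replicate 2 (adjusted p = 0.0867). Pou2f3 was at 4.03, 3.70 and 4.203 CPM in DMSO and at 5.64, 4.84 and 5.29 CPM in Senexin B at 24 h, again without overlap. Its log2 fold change was 0.40 (SE 0.13, adjusted p = 0.0354). This call held under 7 of 13 alternatives and was lost when any of 5 of the 6 libraries compared was left out, Senexin B 24 h replicate 2 being the exception (adjusted p from 0.0549 to 0.111).

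Sh2d6, Gfi1b and Trpm5 were not among the members called at either time. Sh2d6 was at 3.53, 3.42 and 2.41 CPM in DMSO and at 6.76, 3.74 and 4.99 CPM in Senexin B at 16 h, and at 4.42, 3.14 and 2.14 CPM against 6.53, 4.73 and 4.08 CPM at 24 h. Replicate 1 was the highest library in all 4 groups. Its log2 fold changes were 0.73 at 16 h (adjusted p = 0.124, and 0.0108 with the block) and 0.66 at 24 h (adjusted p = 0.0828, and 0.00596 with the block). Without the block Sh2d6 was also called when no filter on low counts was used (adjusted p = 0.0109 at 16 h and 0.00854 at 24 h) and, at 24 h, without DMSO 24 h replicate 1 (adjusted p = 0.0304). Gfi1b, a transcriptional repressor also active in blood cells, had 4 to 9 counts per DMSO library and 8 to 15 per Senexin B library, and a log2 fold change of 0.78 at 24 h (SE 0.36, adjusted p = 0.124). Trpm5 stayed between 8.06 and 12.2 CPM in all 12 libraries, with log2 fold changes of -0.11 at 16 h (95% interval -0.38 to 0.17) and 0.19 at 24 h (-0.08 to 0.46). Its share of the counts of the 9 genes was 27.2% to 32.5% in DMSO and 19.8% to 23.01% in Senexin B, over both times.

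No member was called between the DMSO groups. Between DMSO at 24 h and at 16 h, 0 of 8 were called, where 11.1% of all genes were, 0 of 8 had an unadjusted p under 0.05, against 28.1% of all genes, and the log2 fold changes ran from -0.01 for Trpm5 to 0.20 for Dclk1. The difference between the effect of Senexin B at 24 h and that at 16 h was called for 0 of 8 members, where 0 of 15467 genes were (0%, and 12.9% at an unadjusted p under 0.05). The unadjusted p was under 0.05 for 2 members, Avil (0.53, SE 0.20, adjusted p = 0.318) and Alox5ap (0.54, SE 0.24, adjusted p = 0.369). No member was thus called as responding more at 24 h.

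Side by side, Pou2f3 and Dclk1 were lower in the double knockout and higher at 24 h of Senexin B, each against its own controls. The log2 fold changes were -1.66 and 0.40 for Pou2f3 and -1.16 and 0.46 for Dclk1. Ptgs1 was 0.23 in the double knockout and 1.24 at 24 h of Senexin B. The experiments differ in labelled RNA preparation, in time (7 days against up to 24 h) and in their controls, and the difference between them was not tested.

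Other genes known from tuft cells were taken as a list of 50, of which 45 passed the filter in the genotype experiment and 41 in the inhibitor experiment. In double knockout against WT organoids 2 of 45 rose and 3 fell, with a median log2 fold change of -0.23, beside 9.41% and 7.9% of all genes. The 3 that fell, at an adjusted p under 0.05 in edgeR's test, are transcription factors, out of 5 on the list. They are Hmx3, a homeobox factor (0.920 ± 0.525 against 3.13 ± 0.799 CPM, SD, n = 3, log2 fold change -1.75), Spib, an Ets factor also of blood cells (7.22 ± 2.19 against 14.4 ± 2.66 CPM, -0.99), and Sox4 (232 ± 47.5 against 347 ± 31.5 CPM, -0.58). Those that rose were Il13ra1, a subunit of the receptor for the cytokine that expands tuft cells (0.39), and Plcg2, a phospholipase shared with blood cells (30.5 ± 1.13 against 18.4 ± 3.55 CPM, 0.73). Plcg2 also rose in Cdk8-/- organoids (31.9 ± 0.880 CPM, log2 fold change 0.80), with Cd24a (0.65) and Siglecf (1.42), the 3 genes of 45 called there, all higher, beside 2.79% of all genes called higher. None of the 3 was called without WT replicate 1 or without WT replicate 2, and Cd24a alone was called without WT replicate 3, Cdk8-/- replicate 1 or Cdk8-/- replicate 3. In Cdk19-/- organoids 0 of 45 were called by edgeR (6 at an unadjusted p under 0.05, beside 10.8% of all genes), and 2 by the Wald test of DESeq2, beside 2.13% of all genes. Against Cdk19-/- organoids the double knockout had 5 of 45 higher and 2 lower, beside 14.4% and 11% of all genes, the 5 with the smallest adjusted p being Plcg2 (1.49), Il13ra1 (0.67), Sox4 (-0.79), Siglecf (1.54) and Ptpn18 (0.34). Without the pair of libraries with Cdk19 at the WT level, Siglecf lost its call there and Nrep gained one, Plcg2 and Runx1 were called in Cdk19-/- against WT organoids, 12 genes were called in double knockout against WT organoids, and Alox5 was called against Cdk8-/- organoids. Against Cdk8-/- organoids 0 of 45 were called by edgeR (19 at an unadjusted p under 0.05, beside 15.5% of all genes) and 6 by DESeq2, beside 3.13% of all genes.

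**Figure D5:**
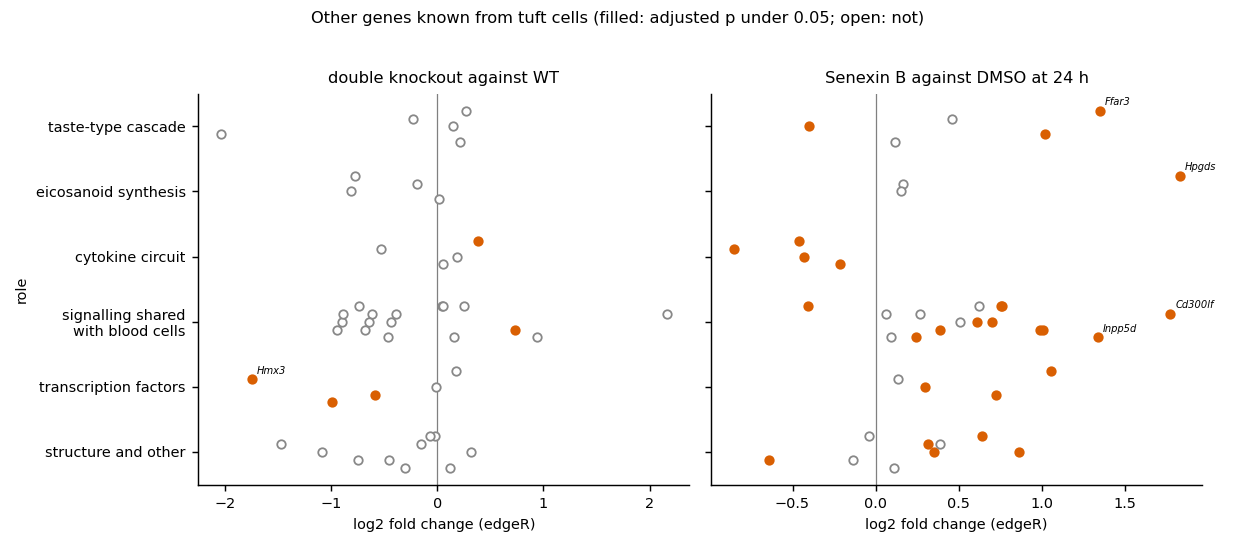
Log2 fold changes of the other genes known from tuft cells, in rows by role, for double knockout against WT and for Senexin B against DMSO at 24 h, filled where the adjusted p was under 0.05. The 3 filled transcription factors on the left lie below 0 and the 3 on the right, 2 of them the same genes, above 0, and all 4 tested genes of the cytokine circuit are filled and below 0 on the right.

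Under Senexin B more genes of this list rose than fell at both times. At 16 h 7 of 41 rose and 5 fell, beside 4.36% and 3.39% of all genes, and at 24 h 20 of 41 rose and 7 fell, beside 14.8% and 12.7%, with median log2 fold changes of 0.24 and 0.35. Of the genes for signalling shared with blood cells, 10 of 16 tested rose at 24 h and 1 fell, and of the transcription factors 3 of 4 rose, Spib and Sox4 among them. Eicosanoid synthesis was led by Hpgds, the synthase that makes prostaglandin D from the product of Ptgs1, at 3.94 ± 1.08 CPM in Senexin B against 1.10 ± 0.389 CPM in DMSO at 24 h (SD, n = 3, log2 fold change 1.83, adjusted p = 0.000366), and at 1.38 (adjusted p = 0.00675) at 16 h, while Ltc4s (0.17) and Pla2g4a (0.15) did not pass the test. All 4 tested genes of the cytokine circuit fell at 24 h: Il13ra1 (-0.46), Il4ra (-0.43), Stat6 (-0.21) and Il17rb, a subunit of the receptor for Il25 (-0.86). Among the strongest calls were also Krt18, a keratin of simple epithelia (0.64 at 24 h), Nrep (0.86 at 24 h), and at 16 h Inpp5d (1.11), a lipid phosphatase of blood cells, and Ptpn6 (-0.39), a phosphatase. Of the taste-type cascade, Plcb2 (1.02) and Ffar3 (1.35) rose and Itpr3 (-0.40) fell. Stat6, Plcb2, Ffar3, Itpr3, Ltc4s and Pla2g4a, and Il17rb, Spib and Sox4 at 24 h, were named after their values had been seen. Several of these genes, Krt18, Cd24a, Itpr3, Aldh2, Sox4 and the cytokine receptors among them, are also expressed by other epithelial cells. Between DMSO at 24 h and 16 h 1 of 41 was called, Il4ra (0.23), beside 11.1% of all genes, a call lost when any library compared but DMSO 16 h replicate 1 was left out, and for the difference between the effects of Senexin B at both times 0 were (8 at an unadjusted p under 0.05, beside 12.9% of all genes).

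Markers of other cells moved in some of the same comparisons. In the double knockout against WT, 4 of 5 stem cell markers fell, while 6 of 6 Paneth, 4 of 7 enterocyte and 2 of 7 goblet markers rose and 0 of 8 enteroendocrine markers were called. Of all genes, 9.41% were called higher and 7.9% lower in that comparison. The summed stem cell markers were at 1781 to 1978 CPM in the double knockout and at 2488 to 2834 CPM in WT, and the summed Paneth markers, some of which have near-identical copies, at 2544 to 5200.5 CPM and 1288 to 1706 CPM. In the double knockout against Cdk8-/- organoids, summed stem cell markers lay lower without overlap (1781 to 1978 against 2216 to 3543.5 CPM). Summed enterocyte markers lay higher without overlap (9794 to 14274 against 7596 to 8389 CPM), and Paneth, goblet and enteroendocrine sums overlapped. Against Cdk19-/- organoids, where Pou2f3 was the member called, 5 of 5 stem cell markers fell, with sums of 1781 to 1978 CPM against 3309 to 5220 CPM. There 5 of 6 Paneth, 6 of 7 enterocyte and 6 of 7 goblet markers rose, with Paneth sums of 2544 to 5200.5 CPM against 1385 to 1673 CPM and enterocyte sums of 9794 to 14274 CPM against 3725 to 5171 CPM. Of all genes, 14.4% were called higher and 11% lower against Cdk19-/- organoids. In Cdk8-/- organoids, where no member was called, 6 of 6 Paneth markers rose against WT as well, beside 2.79% of all genes called higher. At 24 h of Senexin B 5 of 6 Paneth markers fell and 6 of 8 enteroendocrine markers rose (5 of 8 at 16 h), with summed enteroendocrine levels of 320 to 449 CPM against 313 to 344 CPM in DMSO. Of all genes, 14.8% were called higher and 12.7% lower at 24 h, and 4.36% were called higher at 16 h. Summed Paneth markers lay below DMSO without overlap at 16 h (1542 to 2003 against 2024 to 2909 CPM) and at 24 h (1304 to 1774 against 2866 to 3069 CPM), and summed goblet markers did so at 24 h (2987 to 3363 against 3469 to 3950.5 CPM), where 4 of 7 goblet markers rose and 1 fell. The goblet sum mainly follows Fcgbp, which held 45412 to 81328 counts per inhibitor library, against at most 11817 for Tff3, the next highest. The part of these changes in those of the tuft cell genes was not tested. Blood cells, which share Gfi1b, Ptgs1, Alox5ap and Inpp5d with tuft cells, were looked for by 17 markers. Of these, 10 had at most 3 counts in every library of the genotype experiment and 10 in every library of the inhibitor experiment. The macrophage marker Adgre1, the mast cell genes Cpa3 and Fcer1a and the platelet genes Pf4 and Ppbp had at most 2 counts in any library. Higher counts were found for the megakaryocyte integrin Itga2b (7 to 23 per genotype library and 35 to 86 per inhibitor library), Gp1bb (5 to 28 and 0 to 3), Gp9 (1 to 7 and 3 to 10), Mcpt4 (0 to 9 and 0 to 8), Tpsb2 (0 to 8 and 0 to 2), Itgax (0 to 3 and 0 to 7) and Cd3e (0 to 2 and 0 to 4). Csf1r, a macrophage receptor, held 162 to 222 counts per genotype library and 12 to 32 per inhibitor library, and Kit, a receptor of mast cells and of some epithelial cells, 637 to 1795 and 1518 to 3471. The summed lymphoid and myeloid markers lay at 1.30 to 1.40 CPM at 24 h of Senexin B and at 0.551 to 1.05 CPM in DMSO, and their part in the rise of the members was not tested. The sum of 4 neuronal markers, which bear on Dclk1, lay at 7.82 to 9.69 CPM in WT and at 9.49 to 21.5 CPM in the double knockout. At 24 h of Senexin B it lay at 3.19 to 4.18 CPM against 2.01 to 2.59 CPM in DMSO, and its part in the Dclk1 values was not tested.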

How the data were processed

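RNA was sequenced as single-end reads after oligo(dT) purification, per the labels, which for the inhibitor samples also name rRNA depletion. The authors aligned them with STAR (2.6.0c in the submitters' processing notes) to GRCm38.p6 with Ensembl annotation and deposited raw read counts per gene in 3 columns, unstranded and 1 for each strand. The fourth column of each table was used here, and the rows of unassigned reads stayed out of all totals. Total gene counts per library were 14636861 to 15473180 and 27075937 to 28405118.

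Each experiment was analysed separately with edgeR 4.0.16 in R 4.3.3 (TMM normalisation, filterByExpr, quasi-likelihood test over all 12 libraries, Benjamini-Hochberg adjustment over all genes tested, threshold 0.05). CPM were calculated with TMM-scaled library sizes. Alternatives were DESeq2 1.42.0 (its size factors and its Wald test), no filter, at least 10 counts in every library, the unstranded column, the replicate number as a block, only the groups compared, and leaving out each library. The scripts were tested on simulated data. The members and lists were chosen with earlier results of these data known. All 9 members were named, and of the other tuft cell genes up to 5 called ones with the smallest adjusted p per comparison. A run without both libraries with Cdk19 at the WT level was also made. The non-additivity contrast, the shares, the strand check and the motif search were added after the data were seen.

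Same-numbered libraries deviated together for Senexin B against DMSO (correlations of deviations from group means 0.101 to 0.303 at 16 h and 0.137 to 0.377 at 24 h). Senexin B replicate 2 correlated more with a DMSO library of another number, at 16 h (0.101 against 0.154) and at 24 h (0.137 against 0.147). The labels state no pairing. The fit as reported had no block, and the replicate number was a block only as an alternative. No library pair agreed within sampling noise (lowest chi-square per gene 2.31). Results on a few single genes are not reported here.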

Additional observations from a re-analysis of the deposited data

How the results depend on the processing

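Of 1147 values of single members under an alternative, 1057 kept their direction and side of the threshold, 23 lost the call, 20 gained one and 47 reversed. No value called in the fit as reported reversed. Where a value below changed, the cause was not tested unless fewer libraries were left. With 3 libraries a group, calls near the threshold depend on single libraries. Gfi1b gave no value with at least 10 counts in every library. The block changed no other member's call than those of Dclk1 in the double knockout against WT (-1.12, adjusted p = 0.0638) and of Sh2d6 under Senexin B. In the genotype comparisons and between the DMSO groups the same-number correlations ran from -0.193 to 0.366.

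Called members of double knockout against WT numbered 2, but 3 by DESeq2's Wald test and 3 with no filter, Trpm5 being added in both, 1 with the replicate block, 1 with only the groups compared and 1 to 4 when libraries were left out, 4 being without both libraries with Cdk19 at the WT level. Against Cdk8-/- organoids they numbered 0, but 3 by DESeq2's Wald test, 4 with no filter, and 0 to 2 without a library. For Senexin B they numbered 2 at 16 h, but 1 by DESeq2, 1 with only the groups compared and 1 to 2 without a library, and at 24 h 5, but 3 to 5 without a library. With no filter the counts were 2 and 5 as well, but Sh2d6 was called in place of Alox5ap at 16 h and of Pou2f3 at 24 h.

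Called genes among the other tuft cell genes changed more. In Cdk8-/- organoids they numbered 3 against WT, 5 with no filter and 0 to 3 without a library. In Cdk19-/- organoids they numbered 0, 2 by DESeq2, 3 with no filter and 0 to 2 without a library. Double knockout against WT gave 5, with 8 by DESeq2, 10 with no filter and 3 to 12 without a library. Against Cdk8-/- it gave 0, with 6 by DESeq2, 9 with no filter and 0 to 5 without a library, and against Cdk19-/- 7, with 4 for only the groups compared and 3 to 10 without a library. Senexin B at 16 h gave 12, with 7 for only the groups compared and 6 to 10 without a library, and at 24 h 27, with 22 to 27 without a library. Time in DMSO gave 1, with 3 by DESeq2, 4 with the replicate block, 0 for only the groups compared and 0 to 3 without a library. Non-additivity gave 0, with 2 by DESeq2, 3 with no filter and 0 to 4 without libraries.

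Log2 fold changes that reversed when libraries were left out were all uncalled. In Cdk8-/- against WT they ran from -0.0486 to 0.30 for Trpm5 and from -0.18 to 0.34 for Gfi1b, and in Cdk19-/- from -0.33 to 0.0191 for Ptgs1. In double knockout against WT they ran from -0.49 to 0.12 for Avil, from -0.0111 to 0.57 for Ptgs1 and from -0.76 to 0.0030 for Sh2d6, against Cdk8-/- from -0.55 to 0.0192 for Ptgs1, and against Cdk19-/- from -0.10 to 0.50 for Avil, from -0.45 to 0.14 for Gfi1b and from -0.34 to 0.41 for Sh2d6. Between the DMSO times they ran from -0.0796 to 0.0565 for Trpm5 (0.0020 with at least 10 counts, 0.0103 in the unstranded column), from -0.0611 to 0.16 for Avil, from -0.27 to 0.24 for Gfi1b (-0.0476 unstranded), from -0.0639 to 0.13 for Alox5ap (-0.0459 unstranded), from -0.0102 to 0.19 for Ptgs1 and from -0.24 to 0.27 for Sh2d6. The difference between both Senexin B effects ran from -0.29 to 0.23 for Sh2d6. Non-additivity ran from -0.51 to 0.14 for Gfi1b, from -0.36 to 0.20 for Ptgs1 and from -0.71 to 0.0263 for Sh2d6.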
